A study of Mus musculus with 2 samples.

Results

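Phosphorylation of the myosin regulatory light chain is set by kinases that add the phosphate and by a phosphatase that removes it, and 9 genes of this switch were followed in cultured mouse chondrocytes with and without a deletion of *Myl3*. They were *Mylk*, *Rock1*, *Rock2*, *Rhoa*, *Ppp1r12a*, *Ppp1r12b*, *Ppp1cb*, *Ppp1r14b* and *Prkg1*. The members were chosen by gene symbol, and each matched 1 row of the 22156 genes in the deposited table. In the library labelled *Myl3*-KO, *Mylk*, which encodes the calmodulin-dependent myosin light chain kinase, was 1.58-fold higher than in the control library. *Prkg1*, which encodes a kinase activated by cyclic GMP, was 4.21-fold lower, from 22 counts to 4. The other 7 genes differed by a log2 ratio under 0.5 in size.

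In muscle and non-muscle cells, calcium-bound calmodulin activates the myosin light chain kinase, which phosphorylates the regulatory light chain and allows non-muscle myosin II to pull on actin. Myosin phosphatase removes this phosphate. It holds a catalytic subunit of protein phosphatase 1 and a targeting subunit of the MYPT family. The small GTPase RhoA activates the ROCK kinases, which phosphorylate the light chain and the targeting subunit and so hold the phosphatase back, while cyclic GMP-dependent kinase is known to relieve this brake in smooth muscle. In chondrocytes, RhoA and ROCK signaling is known to shape the actin cytoskeleton and with it the rounded or spread form of the cell. The *Myl3* gene itself encodes an essential light chain, another class of light chain of the myosin hexamer.

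The libraries came from primary chondrocytes of newborn mice, from rib cartilage by the labels and from rib and articular cartilage by the methods of the study, on a C57BL/6 J background, maintained as a monolayer without treatment, with 1 library per genotype. *Myl3*-KO mice carry *Myl3* flox/flox alleles and a Cre recombinase driven by the *Col2a1* promoter, which is active in cartilage. The controls are described in the methods of the study as *Myl3* flox/flox littermates without Cre, whereas the sample labels call them WT. The number of mice behind each library is not given in the sources used here, and library and genotype cannot be told apart.

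Expected counts, an estimate of the reads of each gene, summed to 17612434.91 (control) and 13477976.98 (*Myl3*-KO). *Myl3* had 0 counts in both libraries, so the deleted gene gave no check of the labels. Of 12 chondrocyte markers, *Acan*, *Cnmd*, *Hapln1*, *Matn1* and *Matn3* likewise had no count in either library, *Col2a1* had 30 and 27 counts (control first, here and wherever a pair of values is given), and *Sox9* had 866 and 480. The label of chondrocyte therefore does not rest on *Acan*, *Cnmd*, *Hapln1*, *Matn1*, *Matn3* or *Col2a1*. *Comp* had 1 and 2 counts, *Col9a1* 0 and 1, *Prg4* 7 and 7, and *Col10a1* 1 and 5, so the label does not rest on these either. Of the list only *Sox9* and *Col11a1*, at 121 and 99 counts, had more than 30 counts in either library. Most of the chondrocyte markers were thus at or near 0. Levels are given in FPKM, which scales reads by gene length and library, when genes are compared, and in counts or CPM, counts scaled to the library total, when libraries are compared. All ratios are log2 ratios of CPM, *Myl3*-KO over control, with a 95% Clopper-Pearson interval that covers counting error only. With no replicate, the two-sided exact binomial test compared the reads of these libraries and not the genotypes.

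All 9 genes were detected in both libraries, over a wide range of levels. *Rhoa* was the most abundant per length, at 157.27 FPKM in the control and 147.41 in *Myl3*-KO. *Ppp1r14b* followed at 133.94 and 114.56 FPKM. *Ppp1r12a* and *Ppp1cb* were close to each other in the control, at 56.67 and 56.01 FPKM. *Rock2* and *Rock1* lay in the middle, and *Ppp1r12b*, *Mylk* and *Prkg1* at the low end. The order of the 9 genes by FPKM was identical in both libraries. *Rhoa* stood at the 96.4th percentile of the genes tested in the control by FPKM, *Mylk* at the 20.7th and *Prkg1* at the 6.36th. The depth behind a ratio followed these levels: summed over both libraries, 6 genes had between 1618 (*Rock1*) and 10229 (*Rhoa*) counts, *Ppp1r12b* had 900, *Mylk* had 630 and *Prkg1* had 26.

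**Figure D1:**
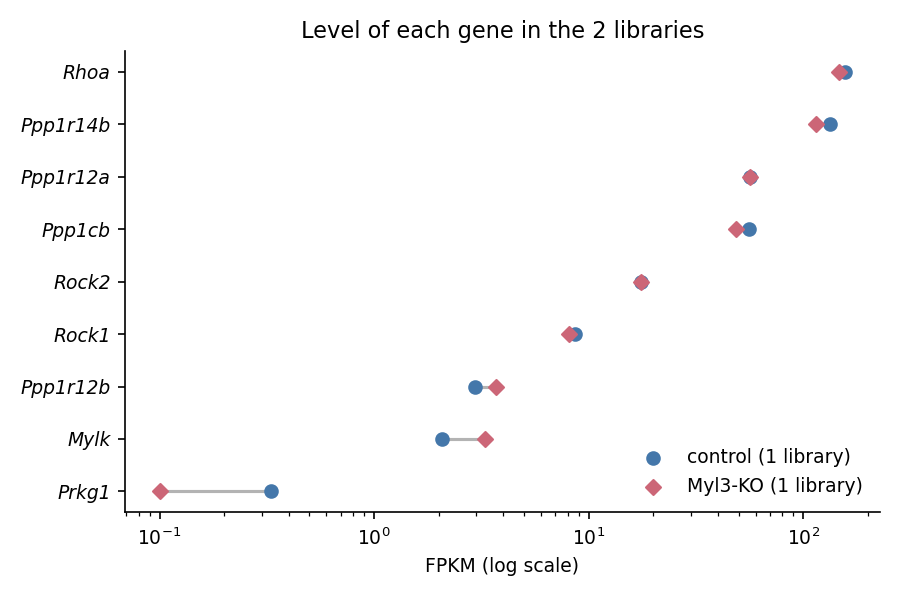
Level of each of the 9 genes in FPKM (x axis, log scale) for control (circles) and *Myl3*-KO (diamonds), with a line joining the pair. The genes keep the same order in both libraries, and the longest lines belong to *Prkg1* (0.33 to 0.10 FPKM) and *Mylk* (2.07 to 3.27 FPKM).

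*Mylk* (ENSMUSG00000022836) is a protein-coding gene at chr16:34745210-35002420 on the plus strand of GRCm38. Its long and short transcripts encode long and short forms of the kinase, and a count per gene does not separate them. The control gave 285 counts and *Myl3*-KO gave 345, although the control library was the deeper. This came to 16.2 CPM (95% interval 14.4 to 18.2) in the control and 25.6 CPM (23.0 to 28.4) in *Myl3*-KO. The log2 ratio was 0.66 (95% interval 0.43 to 0.89), with a Benjamini-Hochberg adjusted p of 1.26e-07 in the exact binomial test. Calls of higher or lower required an adjusted p under 0.05 together with a log2 ratio of 0.5 or more in size. By this rule *Mylk* was the 1 member called higher of 9 tested, beside 501 of all 12431 genes tested, or 4.03%. There were 613 genes tested with a log2 ratio at or above that of *Mylk*, counting *Mylk* itself, so its ratio was not an extreme one in this pair of libraries. The paralogues of *Mylk* were barely counted: *Mylk2* had 3 and 5 counts, *Mylk3* had 4 and 3, and *Mylk4* had 0 in both. *Mylk* thus held 84.8% of the FPKM of the MLCK genes in the control and 93.7% in *Myl3*-KO. *Mylk3* went from 12.7% to 2.58% on its 4 and 3 counts, so part of this change in share rests on that gene.

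*Prkg1* (ENSMUSG00000052920) lies at chr19:30564489-31765033 on the minus strand. The control gave 22 counts and *Myl3*-KO gave 4, where 3 counts, taken as the floor, are 0.170 and 0.223 CPM. Its level was 1.25 CPM (95% interval 0.783 to 1.89) in the control and 0.297 CPM (0.0809 to 0.760) in *Myl3*-KO. The log2 ratio was -2.07 and its interval ran from -4.07 to -0.52, so counting error alone left a wide span (adjusted p = 0.0163, exact binomial test). *Prkg1* was the 1 member called lower, beside 170 of 12431 genes or 1.37%. Among the 1946 genes tested with under 100 counts over both libraries, 37 or 1.9% were called lower. A further rule had a stricter limit, a log2 ratio of at least 2 in size, and a looser one, an unadjusted p under 0.05. By it *Prkg1* was 1 of 6 genes lower, which is 0.0483% of those tested. Only 4 genes tested, *Prkg1* included, had a ratio as low. Counts under 3 were raised to 3, which limits how low genes with few counts can rank, so this rank and the count of 6 depend on the floor. With 1 count added to each library in place of the floor, the log2 ratio of *Prkg1* was -1.82, short of the limit of 2. By FPKM it went from 0.33 to 0.10, a smaller log2 ratio of -1.72. The gene *Cstf2t* lies within the locus of *Prkg1* on the opposite strand, and had 1746 and 1373 counts. Whether counting used strand is not given in the sources used here, and a share of reads between these genes was not tested.

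Both calls rest on counting error as the only error. With a coefficient of variation of 0.1 between libraries assumed in edgeR's exact test, neither gene was called. The adjusted p was then 0.290 for *Mylk* and 0.328 for *Prkg1*, and 41 genes (0.33%) were called higher and 20 (0.161%) lower among all genes tested.

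**Figure D2:**
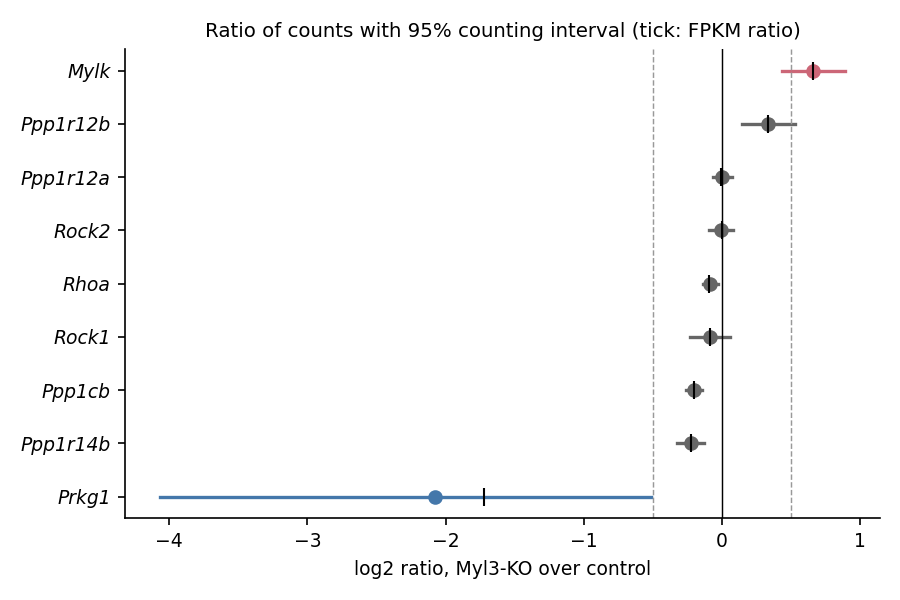
Log2 ratio of counts per library total, *Myl3*-KO over control (x axis), for each of the 9 genes, with points for the ratio, bars for the 95% counting interval and black ticks for the FPKM ratio. Dashed lines mark the limits of 0.5 in size. *Mylk* (0.66) and *Prkg1* (-2.07) are coloured as called, and the interval of *Prkg1* is the widest.

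The promoters of the pair of genes that were called are shown because they moved in opposite directions. The sequences are RefSeq promoter windows of GRCm38.p6, read 5′ to 3′ on the strand of the gene, and cover the bases before a listed start. The window of *Mylk* is cut where an annotated exon begins, which left out 29 bases. It lies inside the annotated locus, which begins at 34745210, and not at its first base. *Prkg1* has 2 listed starts, the second likewise inside the locus. Capitals mark CATTCC, the core letters bound by TEAD factors, or GGGCGG, the core letters of an Sp1 site, on either strand.
Mylk, chr16:34784700-34784920, plus strand: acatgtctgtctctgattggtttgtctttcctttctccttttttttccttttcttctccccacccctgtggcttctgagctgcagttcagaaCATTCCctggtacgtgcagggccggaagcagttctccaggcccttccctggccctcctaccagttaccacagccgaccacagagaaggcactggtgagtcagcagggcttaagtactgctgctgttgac
Prkg1, first start, chr19:31765034-31765283, minus strand: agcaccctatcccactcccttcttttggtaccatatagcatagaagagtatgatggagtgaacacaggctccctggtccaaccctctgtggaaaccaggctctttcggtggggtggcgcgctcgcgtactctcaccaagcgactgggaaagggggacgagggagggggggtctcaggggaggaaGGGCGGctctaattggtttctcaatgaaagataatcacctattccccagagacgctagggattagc
Prkg1, second start, chr19:31664371-31664620, minus strand: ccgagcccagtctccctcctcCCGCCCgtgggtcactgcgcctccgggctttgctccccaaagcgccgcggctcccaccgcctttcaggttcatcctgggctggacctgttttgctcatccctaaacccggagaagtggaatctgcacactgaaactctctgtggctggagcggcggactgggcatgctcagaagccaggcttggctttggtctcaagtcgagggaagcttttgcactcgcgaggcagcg
Windows of 250 bases before the start were searched on both strands for these letters, for TATAAA and for the CArG box, the site of serum response factor. The letters TATAAA can fall within a CArG box. The window of *Mylk* held 1 CATTCC, and each window of *Prkg1* held 1 GGGCGG. Across all 32851 mouse windows of this length, 12.6% held CATTCC, 32.7% held GGGCGG, 12.4% held TATAAA and 1.47% held a CArG box. Of 11 windows found for 8 of the members, 3 held CATTCC, 6 held GGGCGG and 0 held TATAAA or a CArG box. These matches describe letters in these windows only.

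RhoA and the ROCK kinases showed small differences. *Rhoa* (ENSMUSG00000007815, chr9:108306129-108337934, plus strand) encodes the GTPase that activates the ROCK kinases. It had 5940 and 4289 counts, or 337 and 318 CPM, a log2 ratio of -0.08 (95% interval -0.14 to -0.03). Its adjusted p of 0.0140 in the exact binomial test passed the limit, but its ratio was far under 0.5 in size and it was not called. Its start overlaps *Tcta* on the other strand, which had 505 and 393 counts. *Rock1* (ENSMUSG00000024290, chr18:10064401-10182045, minus strand) had 940 counts and 678, a log2 ratio of -0.09 (-0.23 to 0.06). *Rock2* (ENSMUSG00000020580, chr12:16894895-16987823, plus strand) had 2348 counts and 1787, and its FPKM of 17.52 in the control and 17.51 in *Myl3*-KO hardly differed. Its log2 ratio was -0.01 (-0.10 to 0.08). Neither ROCK kinase passed the test, with adjusted p of 0.401 and 0.941 (exact binomial test), and the intervals leave out changes of a log2 ratio of 0.5 as far as counting error goes.

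The phosphatase genes spread in both directions. *Ppp1cb* (ENSMUSG00000014956, chr5:32458843-32517433, plus strand) encodes the catalytic subunit found in myosin phosphatase. It had 5881 and 3909 counts, or 334 and 290.0 CPM, a log2 ratio of -0.20 (-0.26 to -0.14). *Ppp1r12a* (ENSMUSG00000019907, chr10:108162193-108284475, plus strand) encodes MYPT1, the widely expressed targeting subunit. It had 3864 counts and 2959, or 219 and 220 CPM, and the log2 ratio was 0.00 (-0.07 to 0.07). *Ppp1r12b* (ENSMUSG00000073557, chr1:134754658-134955942, minus strand) encodes MYPT2, the form best known from striated muscle. It had 458 counts and 442, a log2 ratio of 0.33 (0.14 to 0.53). So 1 targeting subunit was level, the other was higher, and the catalytic subunit was lower, in each case by under 0.5 on the log2 scale. *Ppp1r14b* (ENSMUSG00000056612, chr19:6974968-6977324, plus strand) encodes a phosphorylation-dependent inhibitor of protein phosphatase 1, related to CPI-17. It had 2168 counts and 1419, or 123 and 105 CPM, a log2 ratio of -0.23 (-0.32 to -0.13). This gene overlaps *Plcb3* on the opposite strand, which was called higher with 431 and 489 counts (log2 ratio 0.57), and whether reads were shared was not tested. *Ppp1r12b* overlaps *Syt2*, which had 2 and 4 counts.

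With no limit on the ratio, 2 members were higher, *Mylk* and *Ppp1r12b*, and 4 were lower, *Rhoa*, *Ppp1cb*, *Ppp1r14b* and *Prkg1*. Over all genes tested the same adjusted p was met by 18.6% higher and 16.8% lower, so at this depth differences of this size were common. The median log2 ratio of the members was -0.08, the value of *Rhoa*, beside 0.02 over all genes tested, and 3 of 9 ratios were above 0.

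**Figure D3:**
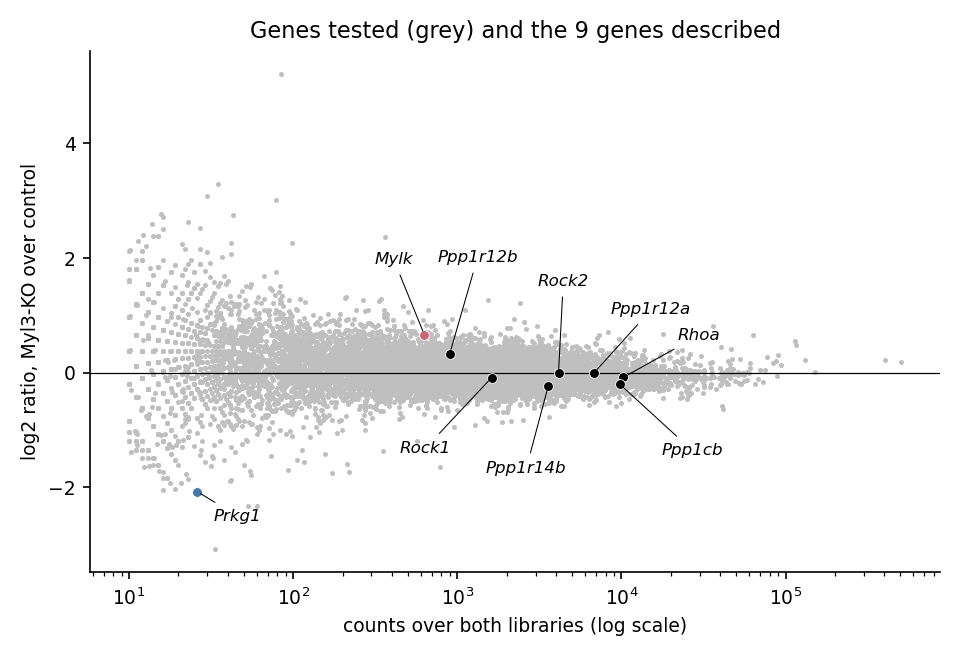
Log2 ratio, *Myl3*-KO over control (y axis), against counts over both libraries (x axis, log scale) for the 12431 genes tested (grey), with the 9 genes labelled. *Prkg1*, with 26 counts, lies in the sparse range where ratios scatter widely and near its lower edge, *Mylk*, with 630 counts, lies at the upper edge of the main band, and the other 7 lie within it.

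Ratios of a pair of genes within a library do not depend on how libraries are scaled, and 6 pairs of partners were compared by the exact conditional test, with p-values adjusted over these pairs. *Mylk* rose against *Ppp1r12a*, the main targeting subunit that opposes it: the log2 odds ratio was 0.66 (95% interval 0.42 to 0.90, adjusted p = 2.77e-07, exact test). *Ppp1r12a* fell against *Ppp1r12b*, from 8.44 to 6.69 counts for each count of *Ppp1r12b* (log2 odds ratio -0.33, -0.54 to -0.13, adjusted p = 0.00172, exact test). *Ppp1r12a* rose against its catalytic partner *Ppp1cb*, from 0.657 counts per count to 0.757 (log2 odds ratio 0.20, 0.11 to 0.30, adjusted p = 2.96e-05, exact test). *Prkg1* and *Mylk* moved furthest apart, at a log2 odds ratio of -2.73 (-4.75 to -1.15, adjusted p = 0.000146, exact test). *Rock1* against *Rock2* gave -0.08 (-0.25 to 0.09, adjusted p = 0.449, exact test). *Ppp1r14b* against *Ppp1cb*, the inhibitor and the enzyme, gave -0.02 (-0.14 to 0.09, adjusted p = 0.705, exact test), both genes being lower by a like amount. The intervals of these last pairs leave room for differences of up to 0.25 and 0.14 in size on the log2 scale. The pairs share genes, and these tests too compare reads of the libraries. Each odds ratio follows from the counts of single genes given above, so the pair tests add no separate evidence. Since *Ppp1r12a* was level, the odds ratio of *Mylk* against it restates the ratio of *Mylk*.

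Each member was then set within its gene family by FPKM. *Rock2* held 67.0% of the ROCK FPKM in the control and 68.3% in *Myl3*-KO. Among the MYPT genes, *Ppp1r12a* held 76.0% and 73.7%, and *Ppp1r12b* 3.94% and 4.85%, with *Ppp1r12c* holding the rest. *Ppp1cb* was the least abundant of the catalytic subunit genes, at 9.46% and 8.78%, behind *Ppp1ca* and *Ppp1cc*. The differences in these families were of a few percentage points. *Rhoa* held 53.5% of the FPKM of *Rhoa*, *Rhob* and *Rhoc* in the control and a lower share in *Myl3*-KO, where *Rhoc*, whose log2 ratio was 0.15 (0.06 to 0.24), went from 40.8% to 44.3%. *Ppp1r14b* made up nearly all of its family, since *Ppp1r14a*, which encodes CPI-17 itself, had 1 and 0 counts. The cyclic GMP kinases differed most in their balance: *Prkg1* went from 14.9% to 2.58%, and *Prkg2*, which encodes the membrane-bound form that acts in growth plate cartilage, held the rest. This change in share rests on the 22 and 4 counts of *Prkg1*, and also on *Prkg2*, which went from 1.88 to 3.78 FPKM.

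**Figure D4:**
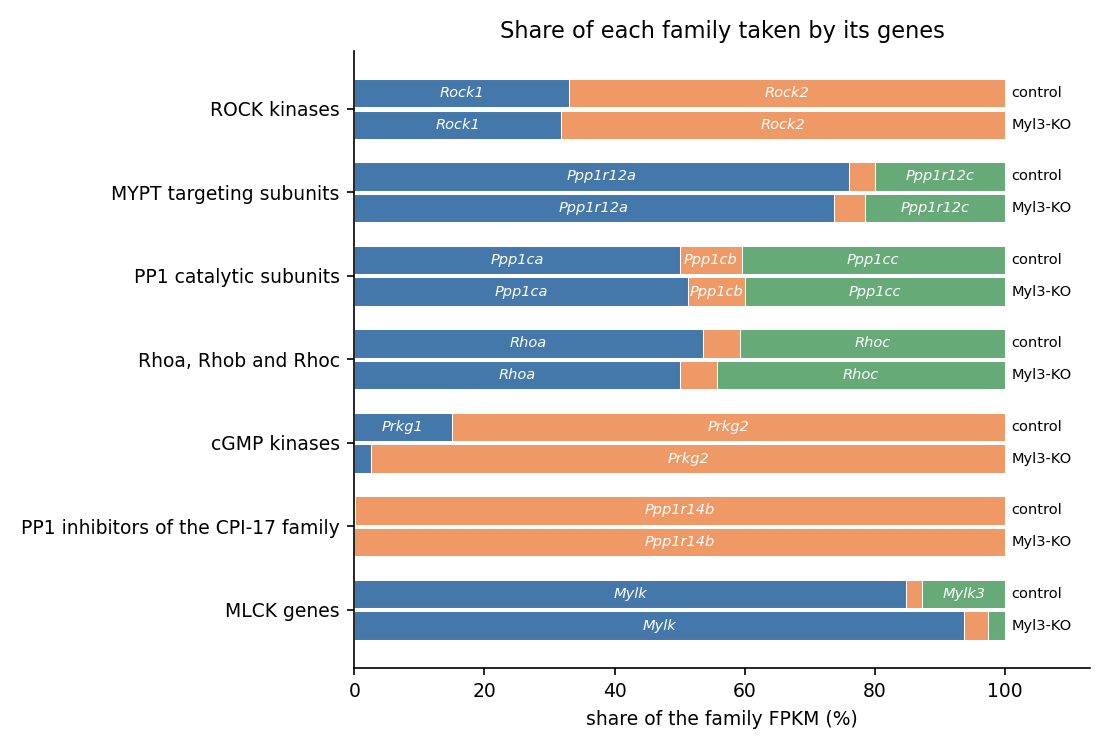
Share of the FPKM of each family (x axis, %) taken by each of its genes, with control as the upper bar and *Myl3*-KO as the lower bar of each pair. Unlabelled segments are *Ppp1r12b*, *Rhob*, *Prkg1* in *Myl3*-KO (2.58%), *Mylk2*, and *Mylk3* in *Myl3*-KO. The largest losses of share are those of *Prkg1*, on 22 and 4 counts, and *Mylk3*, on 4 and 3.

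The rest of the pathway was read from 11 lists of genes arranged by role, which hold 96 genes in the table, of which 75 were tested. Of these, 4 were called higher and 1 lower, and their median log2 ratio was 0.12, beside 0.02 over all genes tested. The 66 genes tested that are not members gave 3 higher and 0 lower, beside 4.03% and 1.37% of all genes tested. With no limit on the ratio, 31 of these 66 were higher and 7 lower, beside 18.6% and 16.8% of all genes tested. Passing the test depends on counts, and all genes tested include 1946 with under 100 counts over both libraries. The shares were not matched for counts.

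The cyclic GMP branch held 3 of the 5 calls. Of its 15 genes 9 were tested, with 2 called higher and 1 lower, beside 4.03% and 1.37% of all genes tested. The 1 lower is *Prkg1*, on 22 and 4 counts. *Prkg2* rose from 96 to 132 counts, or 1.88 to 3.78 FPKM, with a log2 ratio of 0.85 (0.46 to 1.24, adjusted p = 8.97e-05, exact binomial test). *Npr2*, which encodes the receptor that makes cyclic GMP on binding C-type natriuretic peptide, rose from 551 to 724 counts, or 9.48 to 18.02 FPKM (log2 ratio 0.78, 0.62 to 0.94, adjusted p = 3.62e-20, exact binomial test). The members of this branch thus went in opposite directions, with *Prkg1* lower and *Prkg2* and *Npr2* higher. *Npr3*, which encodes the clearance receptor, had 452 and 443 counts and a log2 ratio of 0.36 (0.16 to 0.55), under the limit. The gene of the ligand, *Nppc*, and the soluble guanylate cyclase genes *Gucy1a3*, *Gucy1a2*, *Gucy1b3* and *Gucy1b2* had 0 counts in both libraries. *Nos3* had 14 and 4.35 counts and *Mrvi1*, which encodes a substrate of the kinase encoded by *Prkg1*, had 51 and 28, and neither passed the test (adjusted p = 0.192 and 0.308, exact binomial test).

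Among the kinases of the light chain, 8 of 13 genes were tested and *Mylk* was the 1 called. *Cdc42bpb*, which encodes an MRCK kinase, had a log2 ratio of 0.27 (0.16 to 0.39), and *Cdc42bpa*, with the same role, had 0.14 (0.05 to 0.23). Calmodulin, the activator of the kinase, gave a median of -0.10 over its 3 genes, and *Calm2*, the most abundant, had 12658 and 8816 counts (log2 ratio -0.14, -0.18 to -0.10).

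The proteins that the switch acts on were counted too. The regulatory light chain genes of non-muscle cells were level: *Myl12a* had 6945.86 and 5126.84 counts (log2 ratio -0.05, -0.10 to 0.00) and *Myl12b* had 2786.14 and 2133.16 (0.00, -0.08 to 0.08). These are expected counts that are not whole, and the reads of such similar genes may be divided between them with error. *Myl9*, the third gene of this kind, had 0 counts in both libraries. *Myh9*, which encodes the heavy chain of non-muscle myosin IIA, had 9751.12 and 9706.23 counts, a log2 ratio of 0.38 (0.34 to 0.42). None of these genes was called. Of the other ROCK substrates, 9 were tested and none was called, with a median of 0.14. *Cfl1*, which encodes cofilin and had the most counts, had a log2 ratio of -0.09, and *Add1*, which encodes an adducin, had 0.39. Serum response factor, its MRTF coactivators and their target genes gave the highest median of the lists with more than 1 gene tested, 0.22, with 7 of 10 genes higher with no limit on the ratio and none lower, beside 18.6% and 16.8% of all genes tested. *Flna*, which encodes the actin crosslinker filamin A, had the most counts over both libraries, 22909 and 23453 (log2 ratio 0.42, 0.39 to 0.45), and *Tpm1*, which encodes a tropomyosin, had 24878 and 18935 (-0.01, -0.04 to 0.02). None of these 10 genes was called, and their ratios stayed under 0.5 in size. The shares of all genes set beside them were again not matched for counts.

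**Figure D5:**
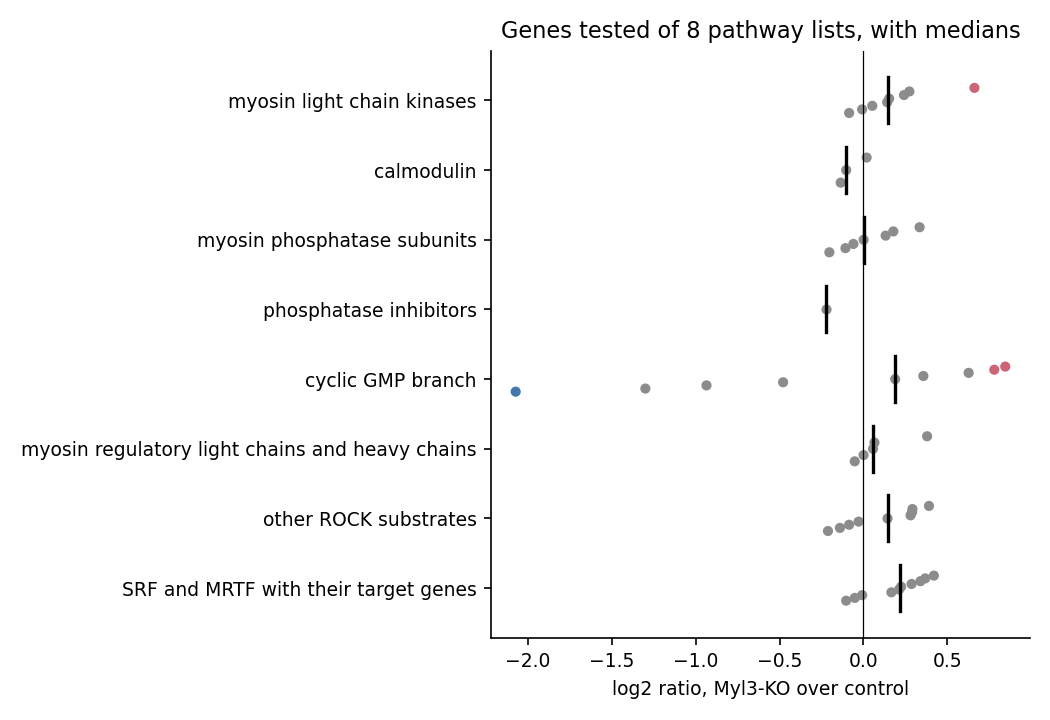
Log2 ratio, *Myl3*-KO over control (x axis), of each gene tested in 8 of the lists (1 point per gene, red for called higher, blue for called lower, grey for not called), with a vertical bar for the median of each list. Calls are few: 3 of the 4 shown lie in the cyclic GMP branch, among its 9 genes tested. Over all genes tested 4.03% were called higher and 1.37% lower. The medians lie between -0.23 and 0.22.

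The pathway annotation in the deposited table places 8 of the 9 members, all but *Ppp1r14b*, in vascular smooth muscle contraction. Of 70 genes tested in this pathway, 6 were called higher and 1 lower, with a median of 0.05. In cGMP-PKG signaling, which holds 7 members, 8 of 103 were called higher and 1 lower, with a median of 0.00. In both pathways *Prkg1* was the 1 gene called lower. In regulation of actin cytoskeleton 15 of 159 were called higher and 1 lower, with a median of 0.08. In focal adhesion 20 of 155 were called higher and 1 lower, with a median of 0.14. Over all genes tested 4.03% were called higher and 1.37% lower, with a median of 0.02, and the pathways share genes.

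Markers of other cells were read beside these results, since in bulk RNA fewer cells of a type and less RNA per cell cannot be told apart. Of 11 smooth muscle and pericyte markers, 5 were tested and none was called, and their summed level was 68.1 CPM in the control and 75.2 in *Myl3*-KO. *Des* had 0 counts in both, *Tagln* 1 and 2, *Cnn1* 4 and 1, and *Myh11* 7 and 2, while *Acta2* had 172 and 127. *Des*, *Tagln*, *Cnn1* and *Myh11* were thus at or near 0 in both libraries, and *Des* is also on the skeletal muscle list. *Smtn* had 655 and 487 counts, and *Cspg4* had 344 and 366 (log2 ratio 0.48, 0.26 to 0.69), under the limit. *Rgs5* had 7 and 14 counts, *Lmod1* 4 and 9, *Synpo2* 3 and 4, and *Notch3* 2 and 2. The list thus held both counted and nearly uncounted genes. Of 10 fibroblast or perichondrium markers, *Dcn* (631 and 155 counts, log2 ratio -1.64) and *Lum* (272 and 81, -1.36) were called lower and *Pdgfra* (120 and 140, 0.61) higher. Their summed level of 15462 and 17532 CPM is mostly *Col1a2*, at 12017 and 14039 CPM, and so does not follow *Dcn* and *Lum*. *Thy1* had 0 counts in both. Of 10 skeletal muscle markers 6 had 0 counts in both libraries, *Cdh15* was called higher (73 and 290 counts, log2 ratio 2.38), and the other 3 had 5 counts or fewer in each library, with *Acta1* at 5 and 1. The summed level of 4.49 and 21.8 CPM is thus nearly all *Cdh15*, at 4.14 and 21.5 CPM. Endothelial markers summed to 1.65 and 3.04 CPM, immune markers to 2.05 and 2.15, and erythroid markers to 0 and 0.0742. The part of the fibroblast and skeletal muscle markers in the results for *Mylk* and *Prkg1* was not tested.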

How the data were processed

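RNA sequencing of primary chondrocytes gave 1 control and 1 *Myl3*-KO library. For each gene the authors deposited an expected count, an estimated number of reads without normalization, and an FPKM value, rounded to few decimals. The submitters' processing notes name the builds GRCm38 and mm10, and the aligner, the counting tool and the use of strand are not given in the sources used here. One column of the table is named NC and was read as control, since the other is named KO. The methods of the study describe oligo beads and random primers, the labels a SMARTER kit.

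Counts were divided by the library totals, with counts under 3 raised to 3 for the ratio. For the two-sided exact binomial test, rounded counts were used and genes needed 10 or more counts summed over the libraries (12431 genes), with Benjamini-Hochberg adjustment over all of them. Pairs were compared by the exact conditional odds ratio. PCR reads without molecular identifiers are not independent molecules, so intervals and floors cover counting error only.

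The members and lists were chosen with earlier results of these data known. The genes named are the members, then in each list those called and the one with the most counts. All others named were chosen for their role or after their values were seen. The results of 1 item are not reported here. Of the listed symbols 7 were matched through other names. Coordinates are from GENCODE M21 on GRCm38 and promoter windows from RefSeq on GRCm38.p6. Alternatives were TMM and DESeq2 scaling, FPKM ratios, an added count, other filters and limits, and edgeR's exact test with a preset variation. Python 3.11.15, scipy 1.17.1, R 4.3.3, edgeR 4.0.16 and DESeq2 1.42.0 were used.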

Additional observations from a re-analysis of the deposited data

How the results depend on the processing

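The calls of *Mylk* and *Prkg1* held under TMM factors, DESeq2 size factors, the FPKM ratio, 1 added count and no filter on low counts. The FPKM ratio and the added count kept the binomial test of the same counts, so they tried only the ratio limit. A log2 limit of 1 gave 0 members higher and 1 lower (143 and 49 of all genes tested), and a limit of 2 with the unadjusted p gave 0 and 1 (31 and 6). With no limit on the ratio there were 2 higher and 4 lower (2307 and 2090 of all genes). At least 10 counts in each library left out *Prkg1*, with its 4 counts, and gave 0 lower. With edgeR's exact test and a coefficient of variation of 0.1, 0.2 or 0.4, 0 members were called in either direction, while all genes gave 41, 3 and 1 higher and 20, 1 and 0 lower, against 501 and 170 in the binomial test. The log2 ratio of *Ppp1r12a*, 0.00, turned to -0.017 under TMM, -0.0157 under DESeq2 and -0.0079 by FPKM, all within counting error. These scalings moved the median of all genes by less than 0.1. List medians were run under TMM, DESeq2, an added count and FPKM ratios. They moved by less than the width of the counting interval of the gene nearest the median. TMM and DESeq2 scaling shift all ratios by the same amount. Pair ratios were run only as ratios of FPKM ratios, and these stayed within the counting intervals. *Prkg1* ranged from -2.09 to -1.72. No paired analysis was possible because there is 1 library per genotype. Depth limits *Prkg1* most, and replicate spread is unknown for every gene.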

Other observations

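The other genes called in the annotated pathways that hold the members were read after their values were seen. Over vascular smooth muscle contraction and cGMP-PKG signaling together, 10 genes were called, 9 higher and 1 lower, and 6 of them are annotated to both. They include *Mylk*, *Npr2*, *Prkg2* and *Prkg1*. *Atp2b4*, which encodes a calcium pump of the plasma membrane, had 93 and 172 counts (control first), and its log2 ratio was 1.27 (95% interval 0.90 to 1.65). *Itpr3*, which encodes a calcium release channel, had 413 and 452 counts (0.52, 0.32 to 0.71). *Plcb3*, which encodes a phospholipase that makes the messenger opening that channel, had 431 and 489 (0.57, 0.38 to 0.76), and it overlaps *Ppp1r14b*. *Adcy7*, which encodes an adenylate cyclase, had 537 and 642 counts (0.64, 0.48 to 0.81). *Irs2*, an adaptor of insulin signaling, had 491 and 595 (0.66, 0.49 to 0.84). *Pla2g4b* had 0 and 11.29 counts.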
